A study of Mus musculus with 6 samples.

Results

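The 6 prefrontal cortex libraries of this study were split into classes chosen by the measured level of 1 gene, Ppp1r1b, which encodes DARPP-32, a phosphoprotein that dopamine regulates in striatal projection neurons. Levels are CPM, the count of a gene scaled to a common library total and so read as counts per 1000000. The 3 libraries above 150 CPM are called high: single-housed replicates 1 and 2 and group-housed replicate 1. The other 3 are called low: single-housed replicate 3 and group-housed replicates 2 and 3. Each class therefore holds both housing conditions. Ppp1r1b stood at 191 CPM in the high library nearest to the threshold and at 87.3 CPM in the low library nearest to it. Of 23284 genes in the deposited table, 15264 had at least 10 counts in at least 3 libraries and are described here. Because measured values set the classes, every difference between high and low libraries is a description with no test, and it supports no statement about housing.

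All 6 libraries came from wild-type C57BL/6 mice (given as C57BL/6J among the protocols), aged 8 to 10 weeks, with no transgene or drug named. The animals had been kept for 6 days either alone or in groups, with 3 libraries for each condition, and the labels give no mouse for a library. Total counts were 25858355 in group-housed replicate 1, which is a high library, and 30931952 to 33428512 in the other 5. A floor of 3 counts corresponded to 0.0897 to 0.116 CPM. No pair of libraries agreed within sampling noise (chi-square per degree of freedom 8.48 to 40.1).

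The striatum lies beneath the frontal cortex, from which it is divided by a sheet of white matter. Most of its neurons are GABAergic projection neurons that receive dopamine. Those of the direct pathway carry the receptor Drd1a with substance P and dynorphin, and those of the indirect pathway carry the receptors Drd2 and Adora2a with enkephalin. Deep cortical layers border the white matter, where oligodendrocytes wrap axons in myelin, and meningeal fibroblasts cover the outer surface next to the upper layers. Because bulk RNA was measured, more cells of a type and more RNA per cell cannot be told apart.

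The label of the tissue was checked against genes of cortical excitatory neurons. Slc17a7, the vesicular glutamate transporter of these neurons, stood at 1900, 2131 and 2049 CPM in the high libraries and at 2129, 2024 and 2128 CPM in the low libraries. Values are given here and below in the order single-housed replicates 1 and 2 and group-housed replicate 1 for the high class, and single-housed replicate 3 and group-housed replicates 2 and 3 for the low class. The cortical transcription factor gene Tbr1, named after its values were seen, ranged from 173 to 194 CPM. Both genes were abundant in all 6 libraries and overlapped between classes, but of the 15 cortical excitatory genes listed 14 had a lower level in the high libraries, 9 of them without overlap.

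In the high libraries, 90 genes were at least 2-fold higher than in the low libraries with no overlap between classes (0.590% of the 15264 genes described), and 0 genes were at least 2-fold lower with no overlap (0%). With no size required, 14.2% of the genes were higher without overlap and 6.64% lower. Regardless of overlap, 9132 of the 15264 genes had a higher level in the high libraries and 6132 a lower one. These 90 genes held 0.690%, 0.461% and 0.551% of all counts in the high libraries and 0.200%, 0.203% and 0.280% in the low ones. All 90 were higher inside each housing group, which follows from the lack of overlap that selected them. Over all genes described, 77 were higher without overlap and at least 2-fold higher inside each housing group. Of the 90 genes, 27, with Ppp1r1b among them, belonged to a list of striatal, dopamine signalling or cholinergic genes. A further 10 belonged to the myelin list, 3 to the layer 6 list, 4 to another list and 46 to none. The difference was at least 4-fold for 18 of them and at least 8-fold for 6.

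Promoter sequences are shown for 3 of these genes whose products are receptors of the striatal pathways, since DARPP-32 and these receptors belong to a signalling route that ends in part on CREB, a factor that binds the element TGACGTCA or its shorter form TGACG. Each is the 250 bases before the RefSeq transcription start in build GRCm38.p6, written 5′ to 3′ on the strand of the gene, with TGACG on either strand (read as TGACG or CGTCA) in capitals. Drd2, the dopamine receptor of the indirect pathway, is on the plus strand (chr9:49340153-49340402), Gpr6, an orphan receptor of the same neurons, is on the minus strand (chr10:41072291-41072540), and Drd1a, the dopamine receptor of the direct pathway, is on the minus strand (chr13:54055659-54055908).
Drd2: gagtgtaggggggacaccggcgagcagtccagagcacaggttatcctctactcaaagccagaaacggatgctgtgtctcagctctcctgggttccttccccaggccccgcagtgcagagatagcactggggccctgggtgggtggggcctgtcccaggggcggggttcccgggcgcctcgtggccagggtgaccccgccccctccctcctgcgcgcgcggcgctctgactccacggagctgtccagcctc
Gpr6: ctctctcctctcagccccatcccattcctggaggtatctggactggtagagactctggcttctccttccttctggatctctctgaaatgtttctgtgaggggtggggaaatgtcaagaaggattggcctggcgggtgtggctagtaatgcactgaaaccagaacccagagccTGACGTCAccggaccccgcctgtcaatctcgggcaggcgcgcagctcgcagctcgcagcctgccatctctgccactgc
Drd1a: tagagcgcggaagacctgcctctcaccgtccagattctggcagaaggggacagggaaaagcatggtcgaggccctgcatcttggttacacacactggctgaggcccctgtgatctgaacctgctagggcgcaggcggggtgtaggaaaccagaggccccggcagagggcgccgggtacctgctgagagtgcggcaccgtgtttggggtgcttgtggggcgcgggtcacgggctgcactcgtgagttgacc
The full element, which holds both short forms on its 2 strands, was present in the Gpr6 window and in neither of the others. Of the 90 genes, 64 had an entry, 1 of these (Gpr6, 1.56%) held TGACGTCA and 14 (21.9%) held the short form. Over all 32851 promoters of the table the shares were 1.55% and 17.8%, and over 27025 genes 19.8% held the short form. A match is a description of letters and not of a bound site.

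The 6 genes that mark striatal projection neurons were all higher in the high libraries. Ppp1r1b itself (chromosome 11, 98210052 to 98219109, build mm9, as are all coordinates from here on) stood at 424, 191 and 220 CPM in the high libraries and at 64.6, 65.4 and 87.3 CPM in the low libraries, by construction of the classes. Penk (chromosome 4, 4060683 to 4065592), the enkephalin precursor of the indirect pathway, stood at 318, 164 and 171 CPM against 57.9, 52.9 and 56.3 CPM, a log2 difference of 1.89 (3.70-fold). The highest value of both genes was in single-housed replicate 1, and the 3 low libraries lay close together.

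The receptor genes of the indirect pathway differed by more than its peptide. Adora2a (chromosome 10, 74779688 to 74797533), an adenosine receptor gene, stood at 88.9, 37.0 and 37.3 CPM against 2.72, 2.10 and 5.64 CPM, which is 13.5-fold. Drd2 (chromosome 9, 49148767 to 49215319) stood at 46.8, 17.4 and 16.7 CPM against 0.868, 1.002 and 2.52 CPM, which is 13.3-fold. For both, group-housed replicate 3 was the highest of the low libraries. Adcy5 (chromosome 16, 35155722 to 35304635), the adenylyl cyclase on which these receptors act, stood at 454, 264 and 246 CPM against 151, 149 and 159 CPM, a log2 difference of 1.01. Rasgrp2 (chromosome 19, 6400583 to 6415216), an activator of the small GTPase Rap1, had 67.1, 36.2 and 35.0 CPM against 13.7, 14.8 and 16.0 CPM, a log2 difference of 1.54.

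The ratio between classes thus ran from 2.02-fold for Adcy5 to 13.5-fold for Adora2a. On a scale of CPM per kilobase of exon, which allows levels to be compared between genes, the mean level in the low libraries was 43.5 for Ppp1r1b, 39.4 for Penk and 30.2 for Adcy5, but 1.38 for Adora2a and 0.946 for Drd2. In the high libraries the same genes were at 167, 154, 63.5, 21.5 and 17.4 CPM per kilobase. The order of these 5 genes by level was the same in both classes. Rasgrp2, the remaining marker, was at 6.76 CPM per kilobase in the low and 21.0 in the high libraries. It thus lay above Adora2a in the low class and below it in the high class.

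**Figure D1:**
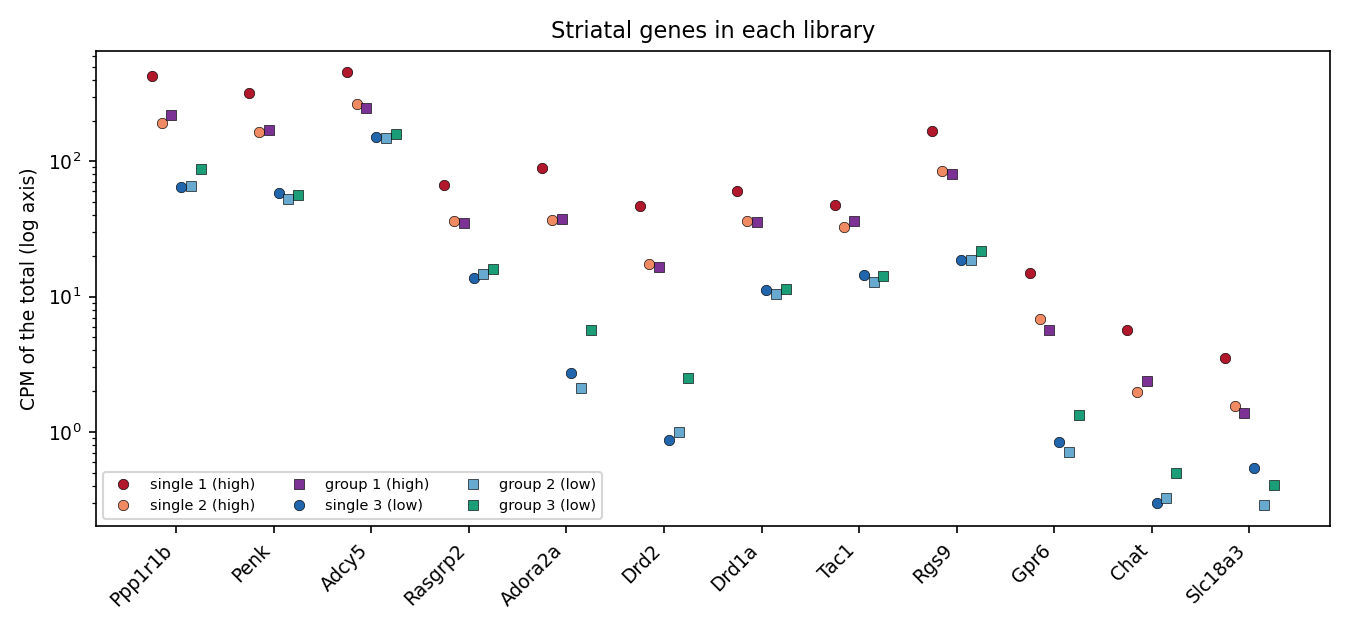
Levels of 12 striatal genes in each library, in CPM on a log axis, with 1 point per library, circles for single-housed and squares for group-housed. For every gene shown the 3 high libraries lie above the 3 low ones, single-housed replicate 1 is highest, and Ppp1r1b spans 64.6 to 424 CPM.

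Genes used by both kinds of projection neuron were higher in the high libraries in 28 of 28 cases, 23 without overlap and 13 at least 2-fold, with a median log2 difference of 0.89 against 0.03 over all genes described. Ppp1r1b, which set the classes, is counted in the 28, the 23 and the 13. Tmem90a, which encodes the synapse protein SynDIG1-like, had the largest difference of all genes described, with 84.4, 28.9 and 35.8 CPM against 2.09, 2.13 and 4.83 CPM (log2 difference 3.76). Rgs9, which ends G protein signalling after dopamine receptors, stood at 166, 85.4 and 80.9 CPM against 18.8, 18.6 and 21.8 CPM (2.38). Both had their highest low value in group-housed replicate 3. Lrrc10b, a leucine-rich repeat gene, had a difference of 2.90, Sh3rf2, which encodes a ring finger protein, one of 3.003 and Rxrg, the retinoid X receptor gamma gene, one of 2.14. Single-housed replicate 1 had the highest level for 28 of the 28 genes. The smallest difference of the list was 0.10, for the homeobox gene Meis2, named after its values were seen, whose classes overlapped.

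Among the 10 direct pathway genes, 5 were higher without overlap, 4 of them at least 2-fold, and 1 was lower without overlap. Drd1a (chromosome 13, 54146553 to 54151027) stood at 60.1, 36.0 and 35.7 CPM against 11.2, 10.5 and 11.4 CPM, a log2 difference of 1.90. Tac1, which encodes substance P, had 47.5, 32.9 and 36.1 CPM against 14.4, 12.8 and 14.1 CPM (1.45). The low libraries lay within a narrow range for both. Slc35d3, a transporter gene of direct pathway neurons, differed by 2.36. Pdyn, the dynorphin precursor of the same neurons, was at 13.0, 9.98 and 7.85 CPM against 10.1, 9.50 and 9.32 CPM, so that the classes overlapped (0.06). The LIM homeobox gene Isl1 had 76, 29 and 19 counts in the high libraries and 0 counts in each low library, which makes it at least 13.5-fold higher against a floor of 3 counts per library. The median over the list was 0.30, also with Isl1 at its bound.

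Of the 10 indirect pathway genes, 9 passed the filter on low counts, 7 of these were higher and 1 lower without overlap, and 5 were at least 2-fold higher (median 1.89). Besides the receptors and Penk, Gpr6 (chromosome 10, 40790299 to 40791390) stood at 14.98, 6.87 and 5.65 CPM against 0.838, 0.711 and 1.34 CPM (2.63), and is the gene whose promoter above carries the full element. Six3, a homeobox gene needed for these neurons, had 308, 114 and 84 counts in the high libraries and 0, 1 and 11 counts in the low ones, or 3.11 on the log2(CPM + 0.5) scale. Its antisense neighbour Six3os1, named after its values were seen, had 60, 27 and 21 counts against 0 in each low library, at least 11.9-fold. The strand setting of the counting is not given in the sources used here, so that reads of this pair cannot be assigned with certainty.

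The wider set of dopamine and protein kinase A signalling genes differed in its striatal members and little in the rest. Of 39 genes, 38 passed the filter, 18 were higher and 5 lower without overlap, and 9 were at least 2-fold higher, with a median of 0.16. They included Drd1a, Drd2, Adora2a, Adcy5, Rgs9 and, by construction of the classes, Ppp1r1b. Gng7, a G protein subunit gene, and Pde10a, both named after their values were seen, were also among them. Gng7 stood at 351, 207 and 203 CPM against 87.3, 86.8 and 101 CPM (1.42). Pde10a, the phosphodiesterase that degrades cyclic nucleotides in these cells, had 360, 178 and 129 CPM against 55.0, 93.0 and 85.5 CPM (1.41). Its low libraries differed among themselves more than those of Gng7, with single-housed replicate 3 the lowest, and its difference was 2.19 inside the single-housed and 0.53 inside the group-housed libraries.

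Cholinergic interneuron genes were also higher. Of 9 genes, 7 passed the filter, 6 of them were at least 2-fold higher without overlap, and the median was 1.47, also with Isl1 at its bound. Chat, the acetylcholine synthesis enzyme, had 5.68, 1.96 and 2.40 CPM against 0.299, 0.323 and 0.499 CPM (2.02). Slc18a3, the vesicular acetylcholine transporter, had 3.53, 1.57 and 1.39 CPM against 0.538, 0.291 and 0.405 CPM (1.47). These levels were low, with 10, 10 and 16 Chat counts in the low libraries. Genes of septum, ventral striatum and basal forebrain were less separated: 4 of the 12 that passed the filter were higher and 1 lower without overlap, 0 were at least 2-fold higher, and the median was 0.10. The largest difference in that list was 0.99, for the imprinted gene Dlk1.

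**Figure D2:**
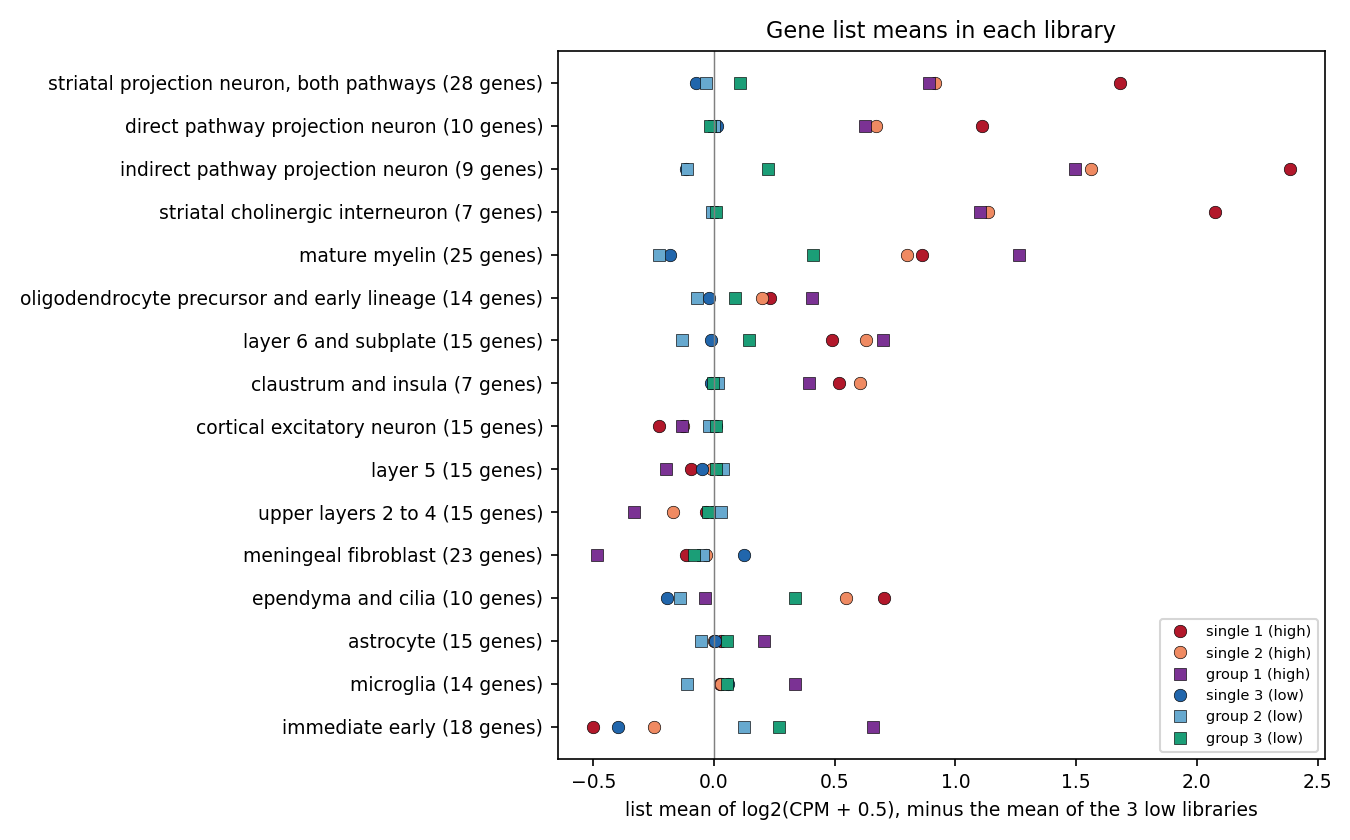
Mean log2(CPM + 0.5) of each gene list in each library, minus the mean of the 3 low libraries, with the number of genes past the filter beside each list and 1 point per library. The striatal lists have single-housed replicate 1 farthest to the right, whereas the myelin and layer 6 lists have group-housed replicate 1 there and the meningeal list has it farthest to the left.

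Myelin genes were higher in the high libraries in 25 of 25 cases, 24 without overlap and 10 at least 2-fold, with a median log2 difference of 0.98. Mbp, which encodes myelin basic protein, stood at 1386, 1273 and 1789 CPM against 620, 622 and 957 CPM (2.04-fold). Group-housed replicate 1 was the highest library and group-housed replicate 3 the highest low library for Mbp, and for 25 of the 25 genes. Klk6, a protease gene of mature oligodendrocytes, had the largest difference of the list, with 5.56, 4.25 and 6.96 CPM against 0.957, 0.873 and 2.77 CPM (1.68). Trf, which encodes transferrin, differed by 1.13 and Hapln2, a link protein gene of the nodes of Ranvier, by 1.16. The exception was Enpp2, named after its values were seen, at 269, 275 and 310 CPM against 280, 276 and 294 CPM. It encodes autotaxin, which cells other than oligodendrocytes also make.

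Genes of earlier oligodendrocyte stages differed less. In that list 6 of 14 were higher without overlap, 0 were at least 2-fold, and the median was 0.18. The transcription factor gene Sox10, which is on in the whole lineage, had 58.3, 52.6 and 73.3 CPM against 31.6, 30.5 and 40.2 CPM (0.84). Pdgfra, the growth factor receptor of the precursors and named after its values were seen, had 53.8, 53.9 and 61.0 CPM against 55.2, 52.3 and 51.5 CPM (0.08). The precursor marker thus overlapped between classes, as 1 of the 25 myelin genes did.

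Genes of cortical layer 6 and the subplate were higher in 15 of 15 cases, 12 without overlap and 3 at least 2-fold, with a median of 0.56. Ctgf, a secreted matrix protein gene of the deepest layer, stood at 33.1, 38.9 and 48.7 CPM against 17.6, 16.9 and 25.0 CPM (1.01). Cplx3, a complexin gene of the same cells, had 22.9, 23.1 and 34.2 CPM against 12.5, 10.2 and 15.8 CPM (1.03). Nxph4, a neurexophilin gene, had 4.47, 5.24 and 5.80 CPM against 1.496, 0.970 and 2.93 CPM (1.39). All 3 were highest in group-housed replicate 1, with group-housed replicate 3 the highest of the low libraries. Foxp2, a transcription factor gene of layer 6 that striatal neurons also use, was instead highest in single-housed replicate 1, with 26.8, 20.9 and 25.6 CPM against 13.1, 11.4 and 13.8 CPM (0.91). Tle4, a corepressor gene of layer 6, differed by 0.35.

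Upper layer and general excitatory genes lay on the other side. Of 15 genes of layers 2 to 4, 12 had a lower level in the high libraries, 7 of them without overlap, and 1 was higher without overlap (median −0.28). Rasgrf2, a Ras exchange factor gene of upper layer neurons, stood at 173, 176 and 144 CPM against 242, 253 and 217 CPM (−0.53). Cux2, a homeobox gene of these layers, had 106, 98.4 and 76.3 CPM against 126, 130 and 114 CPM (−0.41). Both were lowest in group-housed replicate 1. Without that library the mean difference over the list was −0.10, compared with −0.18 over all 6 libraries. Of 15 cortical excitatory genes, 14 had a lower level, 9 without overlap (median −0.17). Neurod1, a transcription factor gene, had 7.23, 10.4 and 7.93 CPM against 12.8, 12.4 and 11.9 CPM (−0.53).

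In the layer 5 list 3 of 15 genes were lower and 1 higher without overlap (median −0.13). The list mean was −0.10 over all 6 libraries, −0.05 without group-housed replicate 1 and −0.0021 in single-housed libraries alone. Fezf2, the factor that specifies neurons projecting below the cortex, had 37.4, 46.1 and 42.6 CPM against 42.4, 47.9 and 47.1 CPM with overlapping classes (−0.13). The gene on the other side was Pcp4, a calmodulin regulator that is also abundant in striatum, at 366, 269 and 353 CPM against 208, 206 and 239 CPM (0.58). Of 7 claustrum and insula genes, 5 were higher without overlap and 2 at least 2-fold (median 0.32). These were Nr4a2, a nuclear receptor gene, with 39.2, 34.4 and 27.5 CPM against 8.02, 14.9 and 14.4 CPM (1.43), and Oprk1, the kappa opioid receptor gene, with 14.6, 15.2 and 15.7 CPM against 7.57, 6.50 and 6.08 CPM (1.12).

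Meningeal fibroblast genes had a lower level in the high libraries in 20 of 23 cases, 6 of them without overlap, while 2 were higher without overlap (median −0.20). Ogn, which encodes the small proteoglycan osteoglycin, stood at 5.11, 5.88 and 2.63 CPM against 9.78, 6.82 and 8.07 CPM (−0.84). Slc13a4, a sulfate transporter gene, had 11.002, 11.6 and 5.22 CPM against 16.0, 14.7 and 12.5 CPM (−0.67). Fmod, which encodes the collagen-binding fibromodulin, had 16.6, 15.9 and 8.78 CPM against 22.9, 20.2 and 20.6 CPM (−0.66). Group-housed replicate 1 was the lowest library for these 3 and for 17 of the 23 genes, and without it the mean difference over the list was −0.07, compared with −0.21 over all 6 libraries. Col1a1 and Dcn, a collagen and a proteoglycan gene of fibroblasts in general, overlapped between classes (−0.16 and −0.05). Ptgds, a prostaglandin synthase gene that meninges and oligodendrocytes both express, had 504, 508 and 368 CPM against 628, 533 and 608 CPM (−0.37). The exceptions were the collagen gene Col6a1, at 117, 142 and 156 CPM against 89.9, 86.9 and 67.9 CPM (0.76), and the proteoglycan gene Bgn (0.27), which was named after its values were seen.

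**Figure D3:**
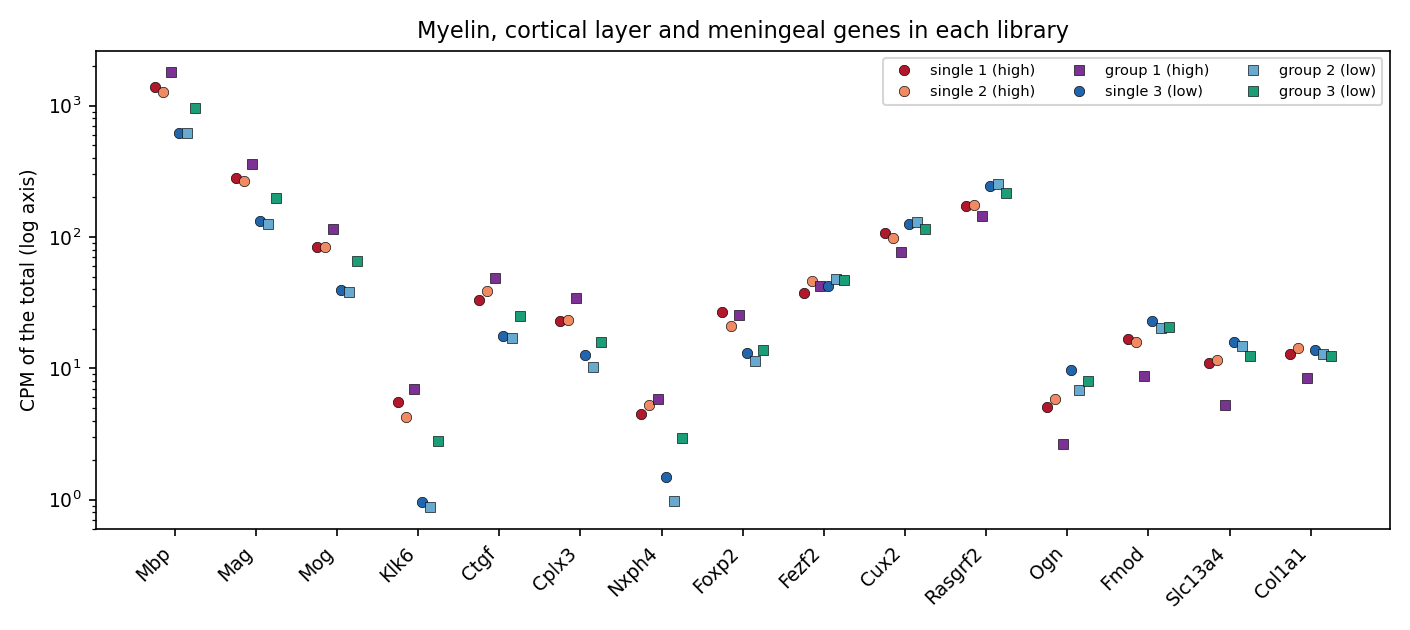
Levels of myelin genes (Mbp to Klk6), layer genes (Ctgf to Rasgrf2) and meningeal genes (Ogn to Col1a1) in each library, in CPM on a log axis, with 1 point per library. Group-housed replicate 1 is highest for the 4 myelin genes and lowest for the 4 meningeal genes, where Ogn spans 2.63 to 9.78 CPM.

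The largest negative differences were small beside the positive ones. Across the 15 genes with the lowest values among those with a mean of at least 1 CPM and no overlap between classes, the log2 difference ran from −0.84 to −0.54. Besides the meningeal genes they included Scn7a, a sodium channel gene, with 4.38, 4.97 and 3.60 CPM against 8.85, 8.02 and 5.98 CPM (−0.75), and Cbln4, a synaptic organiser gene, with 8.72, 7.11 and 7.93 CPM against 11.3, 12.1 and 14.99 CPM (−0.65). Hkdc1, a hexokinase-like gene, had 30.7, 32.6 and 31.0 CPM against 48.7, 45.9 and 43.5 CPM (−0.54). For Hkdc1 each class was narrow and the classes stood apart. With a lower limit of 1.5-fold, 320 genes were higher and 10 lower without overlap.

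The means of the striatal, myelin, layer 6, upper layer and meningeal lists had the same direction inside each housing group, but their sizes differed. In the single-housed libraries, where replicates 1 and 2 were set against replicate 3, the median log2 difference was 1.06 for the striatal list of both pathways, 1.04 for myelin and −0.23 for meninges. In the group-housed libraries, where replicate 1 was set against replicates 2 and 3, the medians were 0.56, 1.19 and −0.40. Over all genes they were 0.00 and 0.08. Drd2 differed by 4.41 and 3.01, Ppp1r1b by 2.13 and 1.54, Mbp by 1.10 and 1.21, and Ogn by −0.78 and −1.34.

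**Figure D4:**
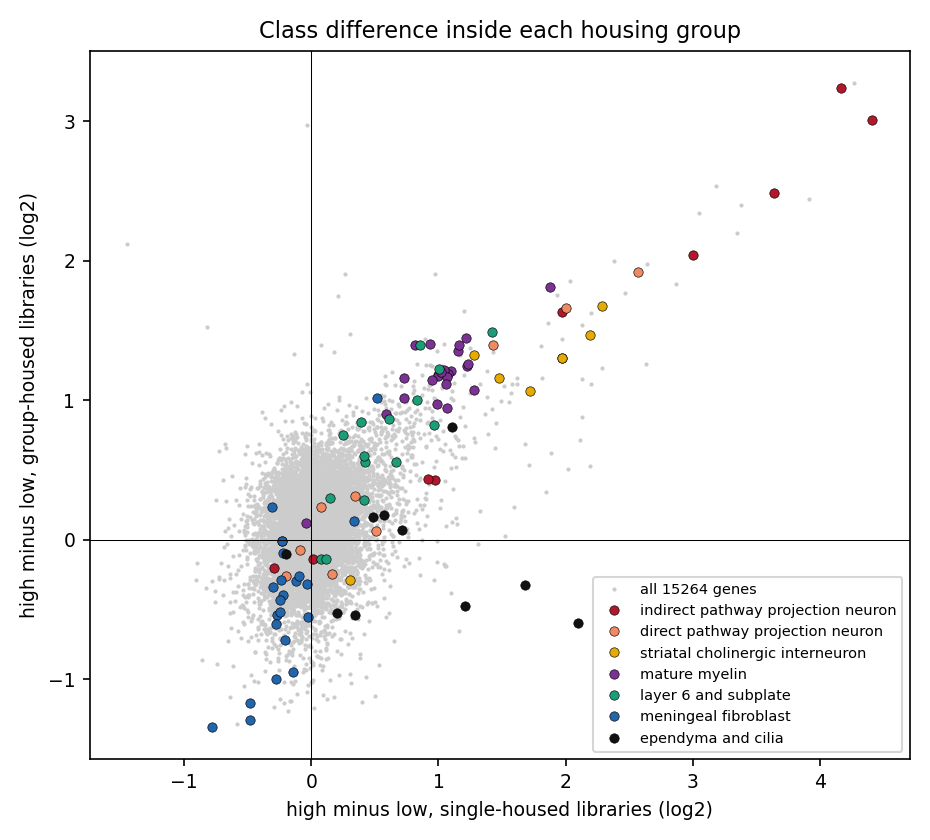
Log2 difference, high minus low, inside the single-housed libraries (horizontal) and inside the group-housed libraries (vertical), for all 15264 genes described in grey and 7 lists in colour. Drd2 lies at 4.41 and 3.01 in the upper right, Ogn at −0.78 and −1.34 in the lower left, and the ependymal gene Ccdc153 at 2.10 and −0.60 in the lower right.

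For each of the 90 genes the excess was taken as the level in a high library minus the mean level of the low libraries. The excess in single-housed replicate 2 and that in group-housed replicate 1 were each divided by the excess in single-housed replicate 1. Of the 90 genes, 61 were highest in single-housed replicate 1, 27 in group-housed replicate 1, and 2, Mki67 and Ttr, in single-housed replicate 2.

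By list, the 13 striatal genes of both pathways among the 90, with Ppp1r1b counted, had median ratios, in that order, of 0.339 and 0.386. The 5 indirect pathway genes had 0.393 and 0.338, the 4 direct pathway genes 0.485 and 0.439, and the 6 cholinergic genes 0.369 and 0.361. The 10 myelin genes had 0.806 and 1.60, and the 3 layer 6 genes 1.29 and 2.13. The myelin and striatal genes of the 90 therefore ranked the high libraries in a different order. In the low class, group-housed replicate 3 exceeded the mean of the other 2 low libraries by a median factor of 2.34 for the 5 indirect pathway genes, 1.58 for myelin, 1.45 for layer 6, 1.20 for the striatal genes of both pathways, 1.17 for dopamine signalling, 1.04 for the direct pathway and 0.977 for the cholinergic genes. It was the highest low library for 68 of the 90 genes.

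**Figure D5:**
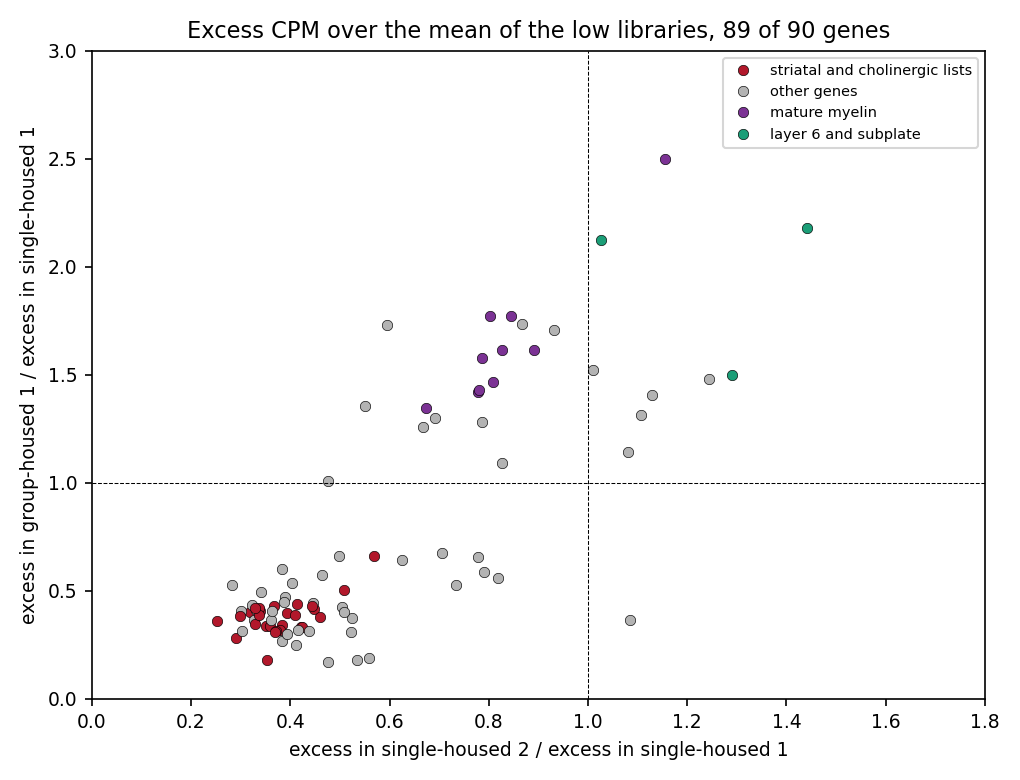
Excess CPM over the mean of the low libraries in single-housed replicate 2 (horizontal) and in group-housed replicate 1 (vertical), each divided by the excess in single-housed replicate 1, for 89 of the 90 genes (Ttr lies outside the axes). The striatal genes gather below 1 on both axes, and the 10 myelin genes lie above 1 on the vertical axis.

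Several genes of the 90 had no place in the lists. Cd4, the coreceptor gene of helper T cells, stood at 23.5, 9.43 and 9.55 CPM against 1.02, 1.52 and 1.87 CPM (2.79). Ptprv, a phosphatase gene, had 15.3, 5.64 and 6.77 CPM against 0.688, 0.744 and 1.15 CPM (2.72). Serpina9, a serine protease inhibitor gene, had 10.9, 5.70 and 4.87 CPM against 0.0598, 0.323 and 0.686 CPM (3.15), and Clspn, a checkpoint gene of DNA replication, had 6.47, 2.35 and 3.02 CPM against 0.359, 0.226 and 0.561 CPM (2.24). All 4 were highest in single-housed replicate 1, as the striatal genes were. Thbs4, a thrombospondin gene named after its values were seen, was highest in group-housed replicate 1, with 12.6, 13.7 and 16.2 CPM against 1.38, 2.13 and 7.82 CPM (2.08).

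Lists of astrocyte, microglia, endothelial, mural, interneuron, olfactory bulb and thalamic genes had medians between 0.06 and 0.40. Over all genes described 14.2% were higher without overlap, and the shares of microglia and endothelial genes lay near that. Astrocyte genes overlapped between classes in 15 of 15 cases (median 0.09). Of 14 microglia genes, 2 were higher without overlap (median 0.13), and all 14 were highest in group-housed replicate 1. Without that library the microglia list mean was 0.03, compared with 0.13 over all 6 libraries, and it was −0.03 in single-housed and 0.37 among group-housed libraries alone. The astrocyte mean was 0.08 over all 6 libraries and 0.02 without the same library. Of 18 endothelial genes, 3 were higher without overlap (0.12), and of 10 mural genes 2 (0.06). Of 15 interneuron genes, 4 were higher and 1 lower without overlap (0.12). Vip, the peptide gene of a cortical interneuron class, had 44.4, 46.4 and 48.0 CPM against 61.4, 59.0 and 56.1 CPM (−0.34), while Slc32a1, the vesicular GABA transporter that striatal neurons share, differed by 0.33. Of 12 olfactory bulb and neuroblast genes, 8 were higher without overlap (0.40), led by the homeobox gene Dlx6 at 0.78. Of 10 thalamic genes, 4 were higher without overlap (0.21), with Tac1, which is shared with the direct pathway list, the 1 gene at least 2-fold higher.

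Housing did not enter the rule and was tested with edgeR's quasi-likelihood test, with the class as a term beside housing. Log2 differences were taken as single-housed minus group-housed. With the class in the model, 0 of 15264 genes passed an adjusted p of 0.05 (0%), and 427 had an unadjusted p under 0.05 (2.80%). DESeq2 called 5, all lower in single-housed libraries: Egr2, Fos, Fosb and, named after their values were seen, Egr4 and Nptxr. Without the class the counts were 0 (0%) and 238 (1.56%), and DESeq2 called 8. The common coefficient of variation between libraries was 9.04% with the class and 11.8% without it. Because the class was chosen from levels in these same libraries, the lower value does not show that the model with it is better.

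The smallest adjusted p values with the class belonged to immediate early genes, which neurons transcribe soon after activity. Fos, an AP-1 subunit gene, stood at 13.0, 15.8 and 11.6 CPM in single-housed replicates 1 to 3 and at 53.5, 22.7 and 32.6 CPM in group-housed replicates 1 to 3. Its difference was −1.58 (SE 0.170, edgeR adjusted p = 0.0591). Egr2, a zinc-finger factor gene, had a difference of −1.85 (SE 0.219, edgeR adjusted p = 0.0677), and Fosb, a second AP-1 subunit gene, one of −0.74 (SE 0.103, edgeR adjusted p = 0.167). The groups did not overlap for Fos. None of the 3 passed the threshold in edgeR, whereas DESeq2 called all 3 with the class in the model. Of 18 immediate early genes, 18 had a lower level in single-housed libraries in both models, with a median of −0.81 with the class and −0.72 without it. edgeR called 0 of the 18 in either model, and DESeq2 called Egr2, Fos, Egr4 and Fosb in both and Egr1 without the class.

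The class was set from a striatal gene, so its term takes up striatal differences by construction, and the list medians are given as values only. The median housing difference over the striatal list of both pathways was 0.59 without the class and 0.20 with it. For cholinergic genes it was 1.37 and 0.46, for indirect pathway genes 0.97 and 0.34, and for myelin genes −0.05 and −0.37. In none of these lists did edgeR call a gene in either model. The single-housed group holds 2 high libraries and the group-housed group holds 1, and with 1 library in 2 of the 4 cells of that design the class and the single libraries cannot be told apart.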

How the data were processed

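RNA from mouse prefrontal cortex was isolated with RNeasy columns and made into libraries with the TruSeq Stranded mRNA kit, per the labels' protocols. FastQC, STAR, featureCounts and build mm9 are named, per the submitters' processing notes; tool versions, the annotation and the strand setting were not given in the sources used here. Raw read counts per gene were deposited, with gene coordinates and exon length, per the file headers, without normalization by the authors.

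CPM was computed from column totals, and class differences on log2(CPM + 0.5) over genes with 10 or more counts in at least 3 libraries, a scale that understates differences of low genes. Classes, lists and tests were chosen with earlier results of these data known. The 25 lists held 363 distinct genes, and 22 of these were in more than 1 list; 379 entries were matched by symbol and 6 by an older symbol, 2 repeated a member and 2 were not matched. Named genes were the 6 markers, the 15 largest and 15 lowest non-overlapping differences at a mean of at least 1 CPM (predicted genes skipped), the 4 largest of each list, 20 by name and 5 by p per direction for housing; others are marked as named after their values were seen.

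Housing was tested with edgeR 4.0.16 in R 4.3.3 (TMM, quasi-likelihood F-test, Benjamini-Hochberg over 15264 genes, threshold 0.05), with SE from the F statistic, and with DESeq2 1.42.0 as an alternative. On data simulated for the model with the class (15264 genes, 50 changed per fold size), 70% of 1.5-fold and 98% of 2-fold changes were recovered, with 13 false calls over all sizes. The changed genes were drawn from those with a mean above 1 CPM, and the simulation used the fitted spread alone. In the real data edgeR did not call Fos and Egr2, which differed by more than 2-fold. The recovery therefore does not show that 2-fold housing changes are absent. The p-values measure the spread between these libraries, which may be partly technical. Alternatives were other scalings, pseudocounts, filters, each library left out, each housing group alone and the replicate number as a block. Promoters are RefSeq sequences of GRCm38.p6, matched by symbol; no coordinates were carried between builds. Some genes that the rule names are left out of the text.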

Additional observations from a re-analysis of the deposited data

Results flagged for a closer look

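Inside the single-housed and inside the group-housed libraries, 3 genes differed between high and low libraries in opposite directions, each with all high libraries on one side of all low ones. These differences between housing groups were not tested, and groups of 3 are too small for a search for outlying samples. Beta-s, a beta-globin gene of red blood cells, had a log2 difference of −1.45 among single-housed and 2.12 among group-housed libraries, with 1.25, 1.51 and 15.9 CPM in the high and 4.61, 1.45 and 6.79 CPM in the low libraries. Alas2, the heme synthesis enzyme gene of red cell precursors, had −0.82 and 1.53. Both were highest in group-housed replicate 1. Ccdc153, a gene of ciliated ependymal cells, had 2.10 and −0.60, with 62, 47 and 3 counts in the high and 0, 5 and 26 counts in the low libraries.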

How the results depend on the processing

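The count of 90 genes higher was 152 with a pseudocount of 0.1 CPM, 51 with 2 CPM and 138 in single-housed libraries alone, and 76 to 137 with 1 library left out (137 without group-housed replicate 3). The count of 0 lower was 3 with a pseudocount of 0.1 CPM, 1 and 32 in single-housed and group-housed libraries alone, and 0 to 2 with 1 library left out (2 without single-housed replicate 2, 1 without single-housed replicate 3 or group-housed replicate 1). In group-housed libraries alone the upper layer mean was −0.33 and the meningeal mean −0.42, and 4 lists turned direction: choroid plexus to −0.0070, ependyma to −0.14, mural cells to −0.02 and immediate early genes to 0.46. Over 275 list alternatives, 249 stayed within the spread between libraries and 24 moved. The remaining 2, choroid plexus and ependyma in group-housed libraries alone, were classed as reversed. The sign differed in 16 of the 275, all in the blood, immediate early, mural, microglia, choroid plexus and ependyma lists. The cause of these shifts was not tested. For housing with the class, DESeq2 called 5 genes (smallest adjusted p 3.99e-14), and leaving out 1 library gave 0 to 3 (3 without single-housed replicate 3, 2 without group-housed replicate 2). Without the class DESeq2 called 8 and leaving out 1 library gave 0 to 1 (1 without group-housed replicate 1 or 2). With the replicate number as a block, 2 genes were called with the class, Egr2 and Fos, and 0 without it. Same-numbered libraries had correlations of deviations of 0.26, −0.36 and 0.21. These were positive where both libraries shared a class and negative where they did not. Single-housed replicate 2 with group-housed replicate 1, and single-housed replicate 3 with group-housed replicate 2, also shared a class and had 0.36 each. The check followed the class, so it cannot decide whether the numbers pair the samples. Depth limits Isl1, Six3, Chat, Ccdc153 and Tmem212, which had 0 to 26 counts in each low library.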

Other observations

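Genes of dividing cells, a list of 10 chosen after the values were seen, are given as values only. Of these, 8 passed the filter on low counts and 7 were higher without overlap, beside 14.2% of all genes described. The median log2 difference of the 8 was 0.62. Aurkb, with 29, 18 and 16 counts against 6, 8 and 9, passed the filter through the high libraries alone. The summed level of the 10 genes was 18.9, 17.1 and 15.9 CPM in the high and 7.45, 7.34 and 11.1 CPM in the low libraries. Top2a, a topoisomerase gene of cycling cells, had 4.01, 3.32 and 2.94 CPM against 0.449, 0.679 and 1.53 CPM (1.57), and Mki67, the gene of the Ki-67 antigen, 3.95, 4.19 and 2.17 CPM against 0.628, 1.13 and 1.65 CPM (1.27). Of 10 ependymal and ciliary genes, 2 were higher without overlap, near the 14.2% of all genes described (median 0.39). The list mean was 0.40 over all 6 libraries and 0.25 without single-housed replicate 1. Foxj1, the master regulator of motile cilia, had 7.45, 6.24 and 6.61 CPM against 2.90, 2.30 and 5.39 CPM (0.92). Of 9 choroid plexus genes, 2 were higher and 1 lower without overlap (0.05), beside 14.2% and 6.64% of all genes described. Ttr, the transthyretin gene of the choroid plexus, had 16, 70 and 19 counts against 3, 12 and 6. Group-housed replicate 3 was the low library with the highest level of Top2a, Mki67 and Foxj1.

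Cd4 was read beside 8 other T cell genes chosen after the values were seen. Of these 1, the kinase gene Lck, passed the filter, at 1.76, 1.90 and 1.51 CPM against 1.35, 1.33 and 1.43 CPM (0.25). Cd3d, Cd3e and Cd3g, which encode parts of the T cell receptor complex, were at 0 to 0.0935 CPM in every library, under the floor of 3 counts or at it. The part of T cells in the Cd4 difference was not tested.

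Immediate early genes did not follow the classes: 0 of 18 were higher and 1 lower without overlap (median −0.10). Npas4, an activity-dependent factor gene, had 19.3, 15.5 and 71.4 CPM against 14.3, 19.8 and 17.7 CPM, and Arc, which encodes a postsynaptic protein, 43.3, 117 and 369 CPM against 78.4, 140 and 154 CPM. Both were highest in group-housed replicate 1. With genes split by exon length into 5 bins, the median class difference ran from 0.08 in the shortest bin to −0.02 in the longest.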
